A study of Rattus norvegicus with 6 samples.

Results

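The 9 genes described here encode G protein-coupled receptors (GPCRs) of oligodendrocyte precursor cells (OPCs), from which the myelinating oligodendrocytes of the brain arise. They are Mchr1, Gpr17, Gpr37, Lpar1, S1pr5, Chrm1, Chrm3, Oprk1 and Hrh3, and they were taken by name from the 32883 genes of the count table. Mchr1 was chosen by the size of its increase, so its values are a description with no test. The other 8 were listed for a known part in OPC differentiation, but with earlier results of these data known. All 9 names were found, and 8 genes passed the filter on low counts, Oprk1 being the exception. The OPCs came from the cortices of 2 Sprague Dawley rats at P0, were taken by shaking from cortical cells grown for 7 days, after microglia had been shaken off. They were then kept for 36 h with 5 µM ZJU-37 or with its solvent DMSO, and no genetic change is given in the labels for either group. The time is that of the labels, and the methods of the study give a shorter one. ZJU-37 is an inhibitor of the kinase RIPK1 that was made from Nec-1s by adding an amide bond. Each group had 3 libraries of poly-A RNA. Whether they came from separate cultures is described in more than one way by the study, so the p-values measure the spread between these libraries, which may be technical.

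GPCRs sit in the cell membrane and pass the binding of a ligand on to G proteins, which raise or lower cyclic AMP or release calcium. In the oligodendrocyte lineage several of them act as brakes. GPR17 appears as precursors commit to differentiate and has to be lost for cells to mature, GPR37 slows the late step towards myelination, and blocking the muscarinic receptors M1 and M3 or the histamine receptor H3 favours differentiation. Activation of the kappa opioid receptor, the product of Oprk1, favours it as well. LPAR1 and S1PR5 bind the lysophospholipids LPA and S1P and are found mainly in cells that have begun to differentiate. MCHR1 is the receptor of melanin-concentrating hormone, a peptide of hypothalamic neurons.

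The libraries held between 13935865 and 24097927 counts, so that 3 counts, the limit that a count of 0 allows, stand for 0.124 to 0.219 CPM. CPM values here are counts scaled to library size with TMM factors, a scaling that evens out differences in library make-up, and this limit covers counting error only. The OPC markers Pdgfra, Cspg4 and Olig1 were at 394, 166 and 809 CPM in DMSO, so OPC transcripts were present. Of the 10 genes listed for premyelinating oligodendrocytes, Neu4 was at 0 in all 6 libraries, and the summed level of the list was 5402 to 7357 CPM with DMSO and 1649 to 2000 CPM with ZJU-37. The 12 mature oligodendrocyte markers summed to 11192 to 22655 CPM and 4788 to 10106 CPM. Both sums did not overlap between groups, with an exact permutation p of 0.1, the smallest that 3 against 3 libraries can give. The cultures also held RNA of other cells. The 11 microglia markers summed to 2132 to 3655 CPM with DMSO and 1546 to 3236 CPM with ZJU-37, the 9 astrocyte markers to 1007 to 1627 and 884 to 1331 CPM, and the 11 neuron markers to 833 to 1110 and 724 to 974 CPM. The 6 vascular and fibroblast markers found summed to 38.9 to 76.3 and 22.3 to 59.1 CPM, with Cldn5 at 0 in every library. These 4 sums overlapped between the groups. Within libraries of the same replicate number, however, each sum was lower with ZJU-37 in every pair. The part of these cells in the receptor results was not tested.

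Of the 8 tested receptor genes, 4 had an adjusted p under 0.05 in the quasi-likelihood test of edgeR, adjusted over all genes after Benjamini and Hochberg. Mchr1 and Chrm3 were higher with ZJU-37, and Gpr17 and Lpar1 were lower. Over all 14670 tested genes the same rule called 15.0%, with 9.43% called higher and 5.58% called lower. Mchr1 belongs to the count by its choice, and of the other 7 tested genes 3 were called, 1 higher and 2 lower. These 7 were listed with earlier results of the same data known, so their count is a description as well. The DMSO and ZJU-37 libraries did not overlap in the same 4 genes, as they did not in 35.2% of all tested genes. The median log2 fold change of the 8 genes was -0.48, beside -0.03 over all tested genes. Without Mchr1 it was -0.68. With the replicate number as a block, 5 of the 8 genes were called, S1pr5 being added, beside 32.1% of all tested genes.

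**Figure D1:**
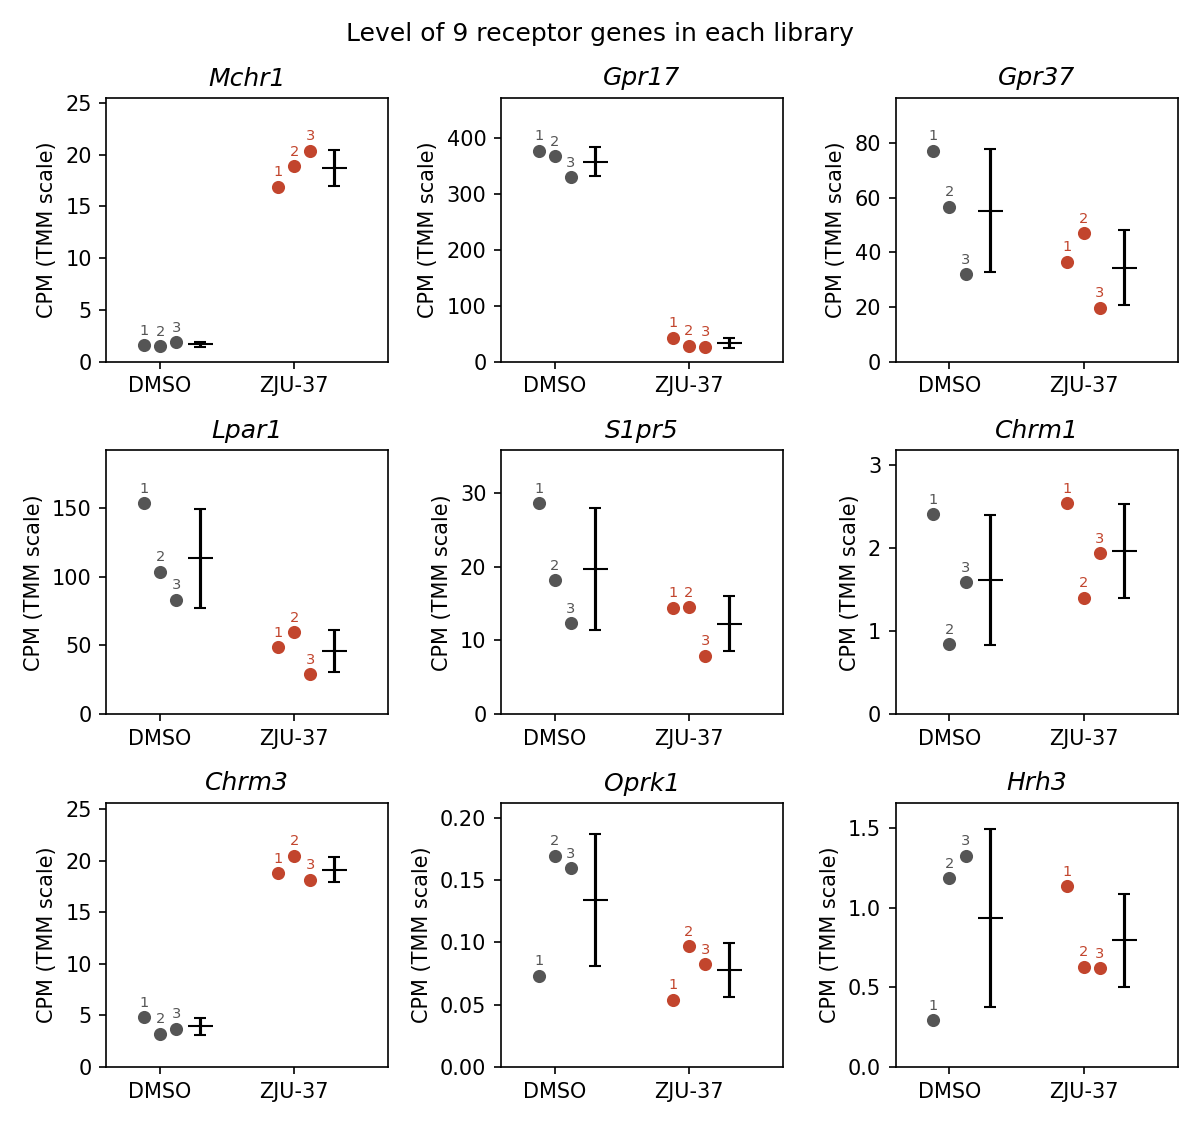
Level of the 9 receptor genes in CPM on the TMM scale (vertical axes, each starting at 0) in the 3 DMSO libraries (grey) and the 3 ZJU-37 libraries (red). Small figures are replicate numbers, and the black mark and bar are the mean and SD (n = 3). Mchr1 and Chrm3 lay higher in every ZJU-37 library than in any DMSO library, Gpr17 and Lpar1 lay lower, and the other 5 genes overlapped.

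Among the receptors that rose or fell with a test, Gpr17 had the largest change. Gpr17, a receptor whose natural ligand is debated, was counted 5155, 6490 and 6196 times in the DMSO libraries and 804, 597 and 653 times in the ZJU-37 libraries. On the CPM scale it went from 377, 367 and 329 to 43.5, 29.0 and 27.0. Every ZJU-37 library lay far below every DMSO library. The mean fell from 357 ± 25.1 (SD, n = 3) to 33.1 ± 9.0 CPM, a 10.8-fold lower level. This gave a log2 fold change of -3.43 ± 0.20 (SE), with a 95% interval of -3.91 to -2.96 and an adjusted p of 0.00032 in edgeR. It was the 11th lowest log2 fold change among the tested genes. Taken pair by pair, the log2 difference was -3.11, -3.66 and -3.60 for replicate numbers 1, 2 and 3. In these bulk cultures fewer cells of a type and less RNA per cell cannot be told apart, and the premyelinating marker sum moved in the same direction.

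The Gpr17 entry lies on the minus strand of chromosome 18, from 24734330 to 24735349, in the coordinates of the count table, whose genome build is not given in the sources used here. Its length of 1020 bases fills the whole span and is a multiple of 3, so it covers coding length without introns. The span lies inside Lims2, a gene for a LIM domain adaptor of focal adhesions, which runs on the plus strand from 24708115 to 24746159. No other member shared bases with another gene of the table. Lims2 was at 223, 213 and 189 CPM with DMSO and at 26.4, 16.5 and 17.8 CPM with ZJU-37. Its log2 fold change was -3.37 ± 0.19 (SE), with an adjusted p of 0.00032 in edgeR. Counts of Lims2 per count of Gpr17 were 0.592, 0.582 and 0.574 in the DMSO libraries and 0.608, 0.571 and 0.66 in the ZJU-37 libraries. The ratio of the pair thus hardly moved while both fell. The counting is not stated to use strand, so reads of the pair cannot be told apart, and the fall is reported for the locus.

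Gpr17 was set beside the stage markers in the same libraries, with the limit on reads of Lims2 given above. Its log2 ratio to the summed premyelinating markers was -4.29, -4.08 and -4.04 with DMSO and -5.52, -6.11 and -5.93 with ZJU-37. The receptor thus fell by 1.72 on the log2 scale relative to a list that itself had 9 of 9 tested genes called lower. Over all tested genes 5.58% were called lower. The 9 log2 fold changes of the list ran from -3.27 to -0.94, so the largest fall in the list was near the -3.43 of Gpr17. The ratio is to a sum, in which abundant markers weigh most. Within that list, Nkx2-2 and Tcf7l2, transcription factors of the differentiation step, had log2 fold changes of -1.74 and -2.05, and Bcas1, a marker of newly formed oligodendrocytes, had -2.18. Itpr2, a calcium release channel, had -0.94. Relative to the mature marker sum, Gpr17 fell by 2.38 on the log2 scale. These ratios are descriptions and were not tested.

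The profiles most like Gpr17 over the 6 libraries, by the smallest root mean square difference of centred log2 CPM among 12534 genes, were those of Lims2, Tnr and Snx22. The differences were 0.0715, 0.17 and 0.233. Tnr encodes tenascin R, a matrix protein made by oligodendrocytes, and went from 611 to 54.6 CPM. Snx22 encodes a sorting nexin and went from 7.59 to 0.813 CPM. Their log2 fold changes were -3.48 and -3.23, so the likeness rests mainly on a fall of about the same size.

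Lpar1, the LPA receptor of differentiating oligodendrocytes, also fell. It lies on the minus strand of chromosome 5, from 75557042 to 75676584. Its level was 153, 103 and 83.1 CPM with DMSO and 48.7, 59.6 and 29.3 CPM with ZJU-37. The lowest DMSO library lay above the highest ZJU-37 library, yet both groups were broad. The mean was 113 ± 36.0 and 45.9 ± 15.4 CPM (SD, n = 3), a 2.47-fold lower level. On the log2 scale the change was -1.30 ± 0.32 (SE), with a 95% interval of -2.07 to -0.54 and an adjusted p of 0.0410 in edgeR. In the fit without the block this call depended on single libraries. The adjusted p was 0.103 without DMSO replicate 1, 0.0978 without DMSO replicate 2, 0.0834 without ZJU-37 replicate 1 and 0.0776 without ZJU-37 replicate 3, and it was 0.118 when no filter on low counts was used. The log2 fold change stayed negative in all 17 alternatives, between -1.51 and -1.03.

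Gpr37 and S1pr5 did not pass the test without the block. Gpr37, a receptor linked to prosaposin that is abundant in oligodendrocytes, was at 77.1, 56.7 and 32.0 CPM with DMSO and at 36.5, 47.0 and 19.7 CPM with ZJU-37. The groups overlapped, and DMSO replicate 3 lay below both the first and the second ZJU-37 library. The log2 fold change was -0.68 ± 0.41 (SE), with a 95% interval of -1.66 to 0.30 and an adjusted p of 0.340 in edgeR. S1pr5, the S1P receptor of the oligodendrocyte lineage, was at 28.6, 18.1 and 12.3 CPM with DMSO and at 14.4, 14.5 and 7.94 CPM with ZJU-37. Its log2 fold change was -0.68 ± 0.36 (SE), with a 95% interval of -1.55 to 0.20 and an adjusted p of 0.288. With the replicate block it was -0.65 ± 0.13 (SE), with an adjusted p of 0.00541 in edgeR. Within numbered pairs S1pr5 differed by -0.98, -0.32 and -0.63 on the log2 scale, so it was lower with ZJU-37 in 3 of 3 pairs although the groups overlapped. Gpr37 was lower in 3 of 3 pairs as well, by -1.07, -0.27 and -0.69, with an adjusted p of 0.0535 with the block.

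Lpar1, Gpr37 and S1pr5 varied together across libraries, and they varied with the mature oligodendrocyte markers. All 3 genes were highest in DMSO replicate 1 and lowest in ZJU-37 replicate 3, as was the mature marker sum. Gpr17 and the premyelinating marker sum had the same highest and lowest library, so these extremes do not set the 3 genes apart. From the lowest to the highest library, Gpr37 spanned 1.97 on the log2 CPM scale, whereas its log2 ratio to the mature marker sum spanned 0.705. For S1pr5 the spans were 1.85 and 0.591, and for Lpar1 they were 2.39 and 0.421. Relative to that sum, Gpr37 and S1pr5 were higher with ZJU-37 by 0.41 and 0.44 on the log2 scale, and Lpar1 fell by 0.23. For Gpr17 the spans were 3.80 and 3.36, so its ratio to that sum narrowed less. The mature list itself had 1 of 12 tested genes called, Cnp, the myelin enzyme CNPase, at a log2 fold change of -1.36. With the replicate block 7 of the 12 were called and with DESeq2 6 of them, in each case lower. Over all tested genes the shares called were 15.0% in the main fit, 32.1% with the block and 12.1% with DESeq2. The most abundant of them per length, Mbp, which encodes myelin basic protein, went from 8108 to 3963 CPM with an adjusted p of 0.136 in edgeR. Whether these receptor levels follow the number of differentiated cells was not tested.

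**Figure D2:**
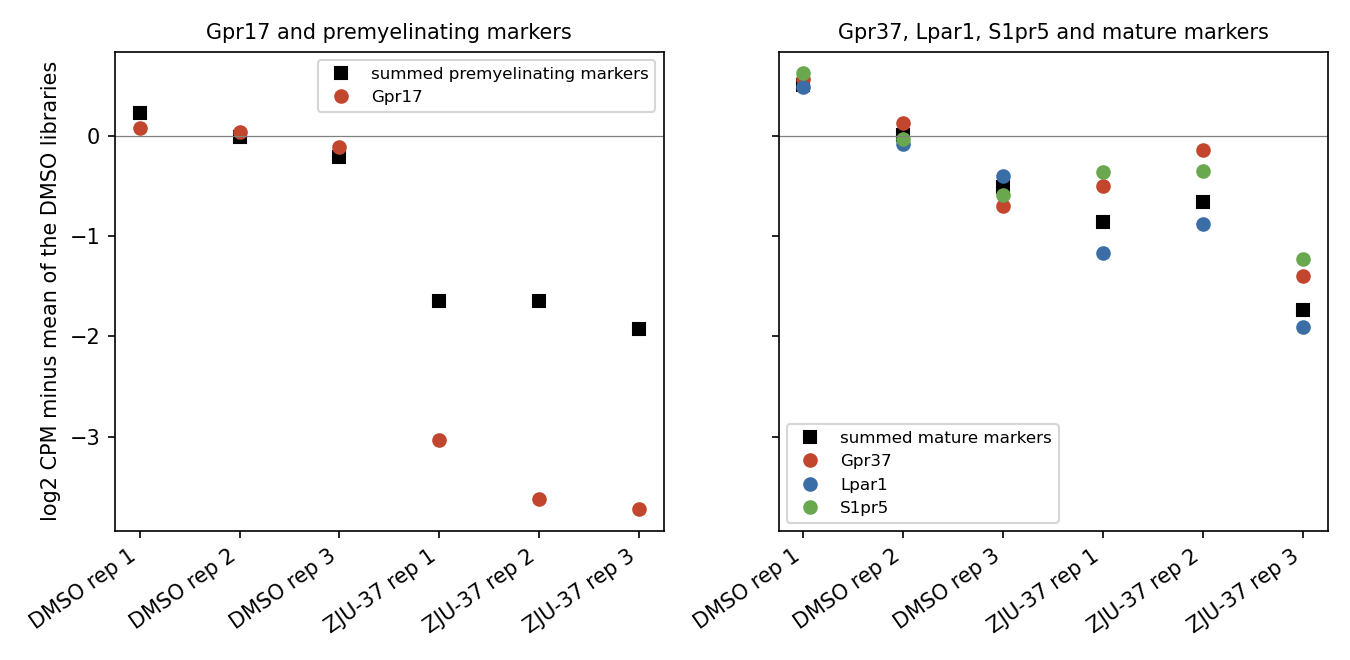
Vertical axis, log2 CPM minus the mean of the 3 DMSO libraries, and horizontal axis, the 6 libraries. Black squares are summed marker levels and circles are single receptors. In the left panel Gpr17 sits below the summed premyelinating markers in each ZJU-37 library, and in the right panel Gpr37, Lpar1 and S1pr5 sit near the summed mature markers in all 6 libraries.

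Mchr1 and Chrm3 stood on the other side. Mchr1 lies on the plus strand of chromosome 7, from 122456799 to 122459960. It was counted 22, 27 and 36 times with DMSO and 313, 390 and 493 times with ZJU-37, or 1.61, 1.53 and 1.91 against 16.9, 18.9 and 20.4 CPM. Each ZJU-37 library lay far above each DMSO library, and the spread within the groups was narrow. The mean was 1.68 ± 0.203 and 18.7 ± 1.73 CPM (SD, n = 3), an 11.1-fold higher level. The log2 fold change was 3.47 ± 0.15 (SE), the 9th highest of the tested genes. The pairs gave 3.32, 3.55 and 3.35. The gene was selected on this increase, so no test is given for it. Under the 17 alternatives its log2 fold change ran from 2.52 to 3.58, the lowest value being that of log2(FPKM + 1), where the pseudocount shrinks changes of low genes. Its counts in DMSO were high enough to pass the low-count filter, and so were those of Chrm3.

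The profiles most like Mchr1 were those of Ckmt1, Fbn2 and Calca, with root mean square differences of 0.257, 0.278 and 0.444 over the 6 libraries. Ckmt1 encodes a mitochondrial creatine kinase and went from 2.52 to 29.4 CPM. Fbn2 encodes fibrillin 2, a protein of extracellular microfibrils, and went from 17.4 to 241 CPM. Calca encodes calcitonin and its related peptide and went from 3.86 to 26.9 CPM. Their log2 fold changes were 3.54, 3.79 and 2.80. The hormone of the Mchr1 receptor comes from Pmch, which had a mean of 0.0354 CPM with DMSO and 0.0180 CPM with ZJU-37, below the limit of 3 counts.

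Chrm3, the muscarinic M3 receptor that acts through Gq and calcium, lies on the minus strand of chromosome 17, from 63990599 to 63994169. It was counted 66, 57 and 70 times with DMSO and 347, 422 and 439 times with ZJU-37, or 4.82, 3.22 and 3.72 against 18.8, 20.5 and 18.1 CPM. The groups were well apart. The mean rose from 3.92 ± 0.820 to 19.1 ± 1.20 CPM (SD, n = 3), a 4.90-fold higher level. The log2 fold change was 2.29 ± 0.17 (SE), with a 95% interval of 1.90 to 2.69 and an adjusted p of 0.00043 in edgeR, and it was the 32nd highest of the tested genes. The call held in all 17 alternatives, with log2 fold changes from 1.60 to 2.46.

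Chrm1, the muscarinic M1 receptor, gave no such result. It was counted 33, 15 and 30 times with DMSO and 47, 29 and 47 times with ZJU-37, so it was a low gene in both groups. The level was 2.41, 0.847 and 1.59 CPM against 2.54, 1.41 and 1.94 CPM, and the groups overlapped. Its log2 fold change was 0.29 ± 0.41 (SE), with a 95% interval of -0.69 to 1.28 and an adjusted p of 0.700 in edgeR. Without DMSO replicate 2 it was -0.020. The upper end of this interval is below the lower end of that of Chrm3. Per length, the log2 ratio of Chrm3 to Chrm1 in RPKM was -0.02, 0.91 and 0.21 with DMSO and 1.87, 2.85 and 2.21 with ZJU-37, so the ratio was higher in every ZJU-37 library than in any DMSO library. This difference between the muscarinic genes was not tested.

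Oprk1 and Hrh3 were at the edge of detection. Oprk1 was counted 1, 3 and 3 times with DMSO and 1, 2 and 2 times with ZJU-37, at or under the limit of 3 counts in every library, so a difference was not detectable at this depth. Hrh3 was counted 4, 21 and 25 times with DMSO and 21, 13 and 15 times with ZJU-37. That is 0.292, 1.19 and 1.33 CPM against 1.14, 0.630 and 0.620 CPM, and the lowest and the highest library were both DMSO libraries. Hrh3 had a log2 fold change of -0.29 ± 0.54 (SE), with a 95% interval of -1.57 to 0.99 and an adjusted p of 0.778 in edgeR. Without DMSO replicate 3 it was 0.041.

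**Figure D3:**
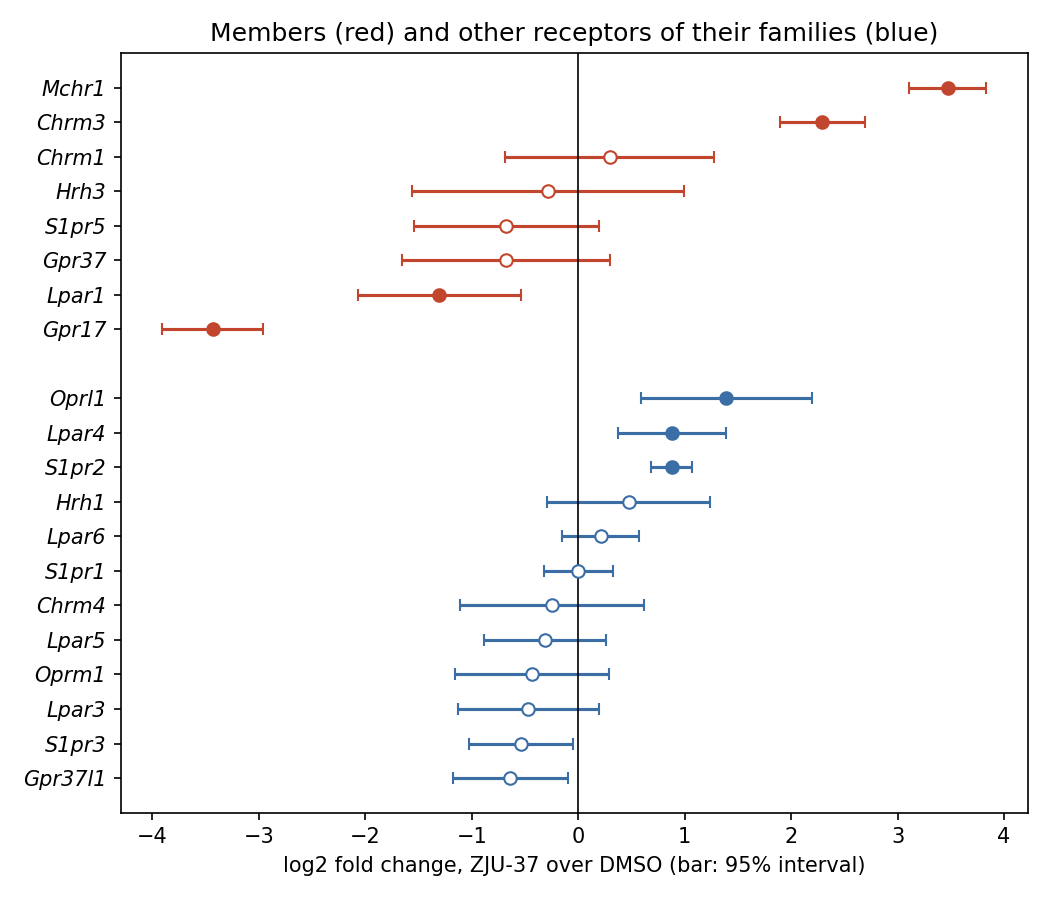
Log2 fold change, ZJU-37 over DMSO (horizontal axis), with its 95% interval from edgeR, for the 8 tested members (red) and the 12 tested receptors of the same families (blue). Filled points have an adjusted p under 0.05, and Mchr1 was chosen by its value. Mchr1 and Chrm3 lie at 3.47 and 2.29, Gpr17 at -3.43 and Lpar1 at -1.30, and the receptors of the same families lie between -0.64 and 1.39.

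For comparison between genes, levels were put per kilobase of the gene length of the table (RPKM). With DMSO the order of mean levels was Gpr17 at 350 RPKM, Lpar1 at 34.4, Gpr37 at 17.3, S1pr5 at 9.88, Chrm3 at 1.10, Chrm1 at 0.915, Mchr1 at 0.886, Hrh3 at 0.287 and Oprk1 at 0.0519 RPKM. Gpr37 and S1pr5 overlapped over the DMSO libraries, and so did Chrm3, Chrm1 and Mchr1, whereas the other neighbours in the order did not. With ZJU-37 the order was Gpr17 at 32.5 RPKM, Lpar1 at 13.9, Gpr37 at 10.8, Mchr1 at 9.88, S1pr5 at 6.17, Chrm3 at 5.36, Chrm1 at 1.11, Hrh3 at 0.244 and Oprk1 at 0.0302 RPKM. Here Lpar1, Gpr37 and Mchr1 overlapped, as did S1pr5 and Chrm3. Mchr1 had thus moved from the level of Chrm1 to that of Gpr37.

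The make-up of the receptor transcripts changed with these levels. Gpr17 made up 80.6%, 85.5% and 87.8% of the summed RPKM of the 9 genes with DMSO and 46.3%, 33.3% and 42.2% with ZJU-37. These shares take all counts of the entry as those of Gpr17, although reads of Lims2 cannot be told apart. Mchr1 went from 0.217% ± 0.0498 to 12.8% ± 3.86 (SD, n = 3) and Chrm3 from 0.264% ± 0.0434 to 6.85% ± 1.21. The share of Lpar1 was 8.16% ± 1.75 and then 17.2% ± 3.66, although its level was lower, since the sum of all 9 fell from 415 ± 45.5 to 80.0 ± 15.4 RPKM. Without Gpr17 the sum was 64.8 ± 22.2 and 47.5 ± 10.5 RPKM, and the groups overlapped.

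**Figure D4:**
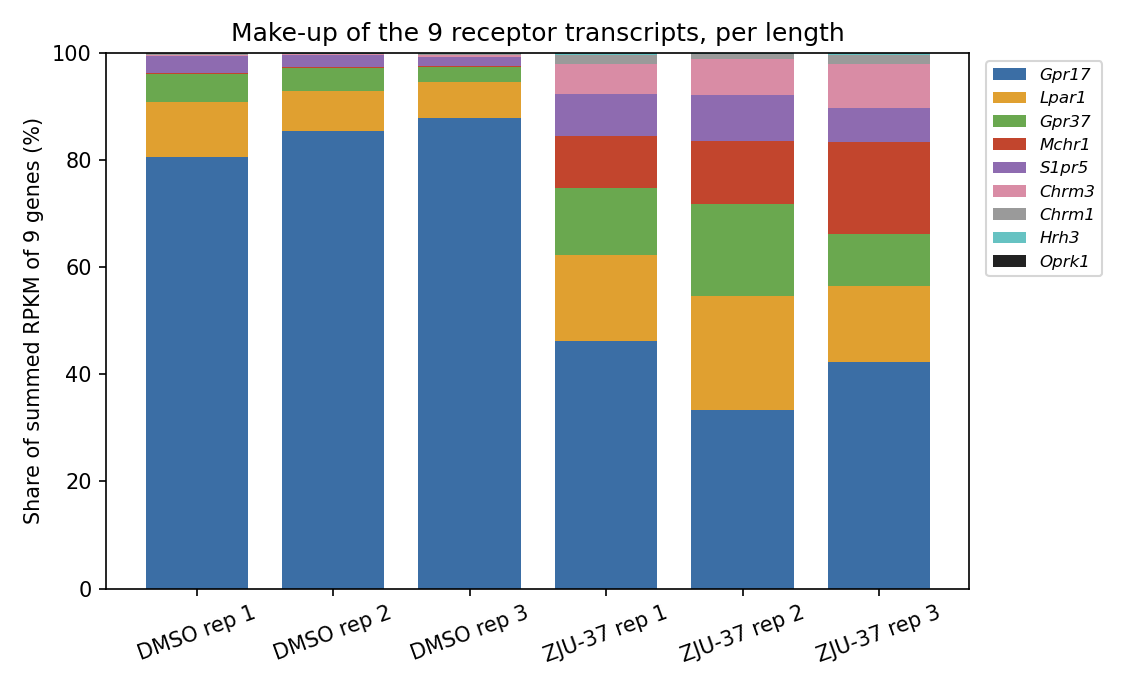
Share of each gene in the summed RPKM of the 9 receptor genes (vertical axis, percent, from 0 to 100) in each of the 6 libraries (bars). Gpr17 takes 80.6% or more of each DMSO bar and 46.3% or less of each ZJU-37 bar, where Mchr1, Gpr37 and Lpar1 take visible shares.

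The members were also placed among 246 rhodopsin-class receptor genes found in the table, 109 of them tested. Gpr17, whose reads cannot be told apart from those of Lims2, ranked 1 by mean RPKM with DMSO and 5 with ZJU-37. Lpar1 went from rank 6 to 15, Gpr37 from 13 to 18 and S1pr5 from 24 to 38. Mchr1 went from rank 72 to 20 and Chrm3 from 67 to 40, whereas Chrm1 was at 71 and 68. Ednrb, the endothelin B receptor, was the most abundant of the other receptors and took rank 1 with ZJU-37, at 137 and 153 CPM with an adjusted p of 0.715 in edgeR and of 0.0496 with the replicate block. Of the 89 other rhodopsin-class receptors tested, 4 were called, or 4.49%, beside 15.0% of all tested genes. Adora1, the adenosine A1 receptor, rose from 65.3, 58.7 and 69.1 to 165, 135 and 152 CPM, and F2r, the thrombin receptor, rose with a log2 fold change of 0.59. Lgr4, an R-spondin receptor, and Gpr62, an orphan receptor of oligodendrocytes, fell with log2 fold changes of -0.97 and -1.48. With the replicate block 25 of these 89 genes were called, 8 higher and 17 lower, beside 32.1% of all tested genes. Without it, the number called lower was 1 when DMSO replicate 1, DMSO replicate 2 or ZJU-37 replicate 3 was left out, and also under each other normalization.

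**Figure D5:**
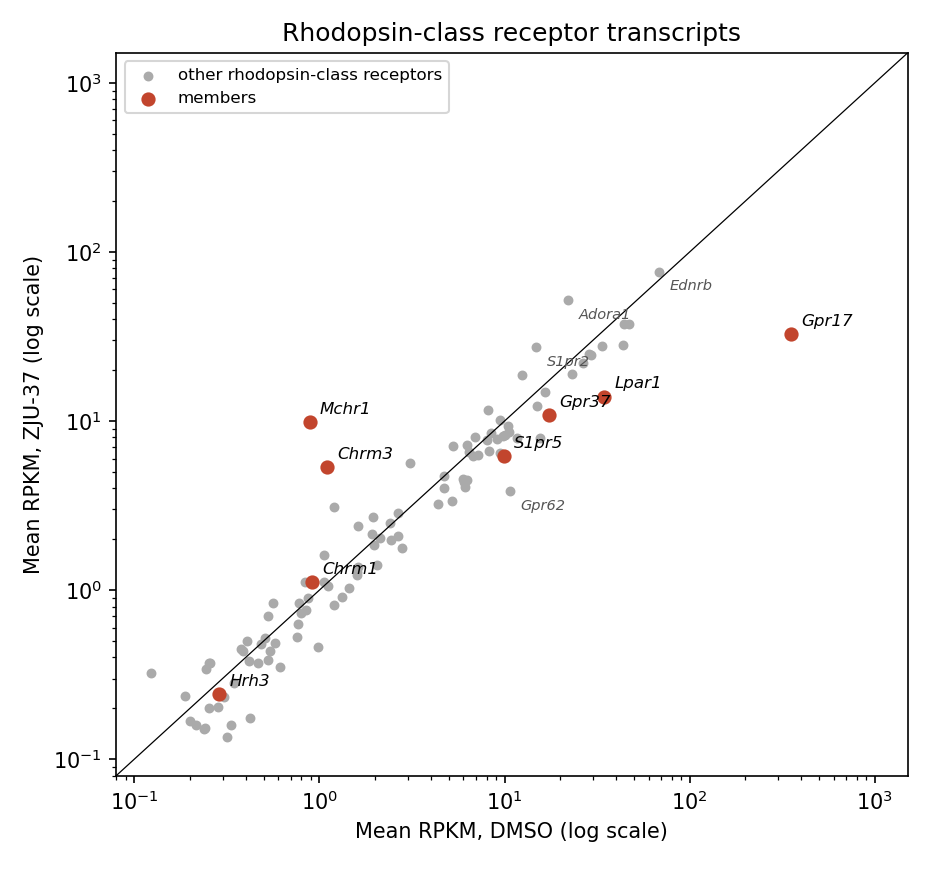
Mean RPKM of the 109 tested rhodopsin-class receptor genes with DMSO (horizontal axis) and with ZJU-37 (vertical axis), both on a log scale, with members in red and the line of equal levels in black. Mchr1 and Chrm3 lie above the line and Gpr17 lies farthest below it, at 350 and 32.5 RPKM.

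Among the 12 tested receptors of the same families, 3 were called, or 25%, and all 3 rose. Over all tested genes 15.0% were called, and 9.43% were called higher. S1pr2, an S1P receptor coupled to G12/13, rose from 39.5, 40.1 and 42.4 to 67.3, 77.9 and 78.9 CPM, with a log2 fold change of 0.88 ± 0.08 (SE) and an adjusted p of 0.00082 in edgeR. Lpar4, another LPA receptor, and Oprl1, the nociceptin receptor, rose with log2 fold changes of 0.88 and 1.39 and adjusted p-values of 0.0378 and 0.0376. The S1P and LPA families thus held genes with opposite signs, S1pr2 and Lpar4 above 0 and S1pr5 and Lpar1 below. Gpr37l1, the nearest relative of Gpr37 and the most abundant of this list per length, was at 107 and 68.5 CPM, with a log2 fold change of -0.64 and an adjusted p of 0.118, and of 0.00012 with the block. With the block 6 of the 12 genes were called, 3 in each direction, beside 32.1% of all tested genes. The number called higher was 1 without DMSO replicate 1, without DMSO replicate 2 or without DMSO replicate 3. It was also 1 with limma-voom, with limma on log2(FPKM + 1) and at an adjusted p under 0.01 in edgeR. Without ZJU-37 replicate 3, 1 was called lower.

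Of the genes that make, carry or remove the ligands, 2 of 13 tested were called, or 15.4%, and both fell. This share was near the 15.0% called over all tested genes. Spns2, which exports S1P from cells, fell from between 27.5 and 34.5 CPM to between 11.4 and 14.7 CPM, or -1.27 ± 0.13 (SE) as a log2 fold change (edgeR adjusted p, 0.00136). Enpp2, which encodes autotaxin, the secreted enzyme that makes LPA, fell from 184, 175 and 132 to 77.3, 98.7 and 56.8 CPM, with a log2 fold change of -1.08 and an adjusted p of 0.0215. Of the pair, 1 was called without DMSO replicate 1, without DMSO replicate 2 or without ZJU-37 replicate 1. Psap, the gene of prosaposin, was the most abundant gene of the list per length, at 5173 and 4530 CPM with an adjusted p of 0.607, and of 0.0205 with the replicate block. With the block 4 of the 13 genes were called, 1 higher and 3 lower, beside 32.1% of all tested genes. Chat, the enzyme that makes acetylcholine, was below the limit of 3 counts in both groups.

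Downstream, 6 of 25 tested G protein subunits were called, 3 in each direction. That is 24%, beside 15.0% of all tested genes. Gnaz, which encodes an inhibitory alpha subunit, and Gng3 rose with log2 fold changes of 0.93 and 0.66, and Gng8 and Gng12 fell with -1.35 and -0.93. Gnai2, the inhibitory alpha subunit with the highest level per length, was at 725 and 736 CPM with an adjusted p of 0.902 in edgeR. Of 23 tested genes of signal termination 3 were called, or 13%, and all rose. Rgs20, which speeds the switching off of inhibitory alpha subunits, rose from 29.1, 25.0 and 27.0 to 66.8, 58.7 and 60.5 CPM, or 1.20 on the log2 scale (edgeR adjusted p, 0.00043). Grk6, a receptor kinase, and Rgs12 rose with 0.49 and 0.65. Of 31 tested second messenger enzymes and channels 5 were called, or 16.1%, 2 higher and 3 lower. Plcb3, a phospholipase C on the Gq route, and Adcy3, an adenylyl cyclase, rose with log2 fold changes of 0.80 and 0.88, and Itpr2 and the protein kinase C gene Prkca fell with -0.94 and -0.73. Over these lists of other receptors, ligands and signalling genes, 23 of 193 tested genes were called, or 11.9%, beside 15.0% of all tested genes. Their median log2 fold change was -0.11. With the replicate block 69 were called, 27 higher and 42 lower, beside 32.1% of all tested genes. With the block the calls numbered 12 among the G protein subunits (4 higher, 8 lower), 8 in signal termination (5 higher, 3 lower) and 14 among the second messenger genes (6 higher, 8 lower).

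Promoter sequences of 300 bases, from 250 before to 50 after the gene start, were matched by symbol in RefSeq (assembly GRCr8) for 6 of the 9 genes, Gpr17, Gpr37, S1pr5, Chrm1, Chrm3 and Hrh3. The members called in opposite directions for which an entry was found, Gpr17 and Chrm3, are shown. The pair was picked for its difference in the E-box, the letters CANNTG that basic helix-loop-helix factors such as OLIG2 bind. Capitals mark each E-box, and the positions are those of GRCr8, not of the count table. Gpr17 is at chr18:23857332-23857631 on the minus strand and Chrm3 at chr17:64696677-64696976 on the plus strand. The count table puts Chrm3 on the minus strand, and this difference was not resolved here.
Gpr17: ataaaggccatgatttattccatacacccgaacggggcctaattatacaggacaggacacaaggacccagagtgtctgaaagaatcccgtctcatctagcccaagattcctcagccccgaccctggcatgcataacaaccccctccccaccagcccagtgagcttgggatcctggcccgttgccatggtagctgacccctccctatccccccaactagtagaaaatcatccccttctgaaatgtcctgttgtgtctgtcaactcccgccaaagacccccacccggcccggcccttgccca
Chrm3: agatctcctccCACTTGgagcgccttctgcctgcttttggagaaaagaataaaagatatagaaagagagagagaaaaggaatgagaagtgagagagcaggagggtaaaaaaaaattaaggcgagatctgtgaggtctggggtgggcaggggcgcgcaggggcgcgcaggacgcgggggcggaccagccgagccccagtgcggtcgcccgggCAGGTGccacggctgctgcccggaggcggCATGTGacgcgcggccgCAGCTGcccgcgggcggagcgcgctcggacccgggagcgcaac
The Chrm3 window held 4 E-boxes and the Gpr17 window none. The windows of Chrm1, Gpr37, S1pr5 and Hrh3, genes not called without the block, held 3, 1, 1 and 0. E-boxes were thus found in 4 of the 6 members, beside 72.1% of all 33469 RefSeq promoters of that length. Whether their number goes with the direction of change was not tested. The SOX letters ACAAAG or ACAATG were found in Chrm1 alone, beside 29.1% of all promoters, and the cyclic AMP response letters TGACGTCA or TGACGTAA in none, beside 2.62%. Both strands were searched, and the motifs could overlap. A match describes letters in this window and not a bound factor.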

How the data were processed

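The series holds 1 table. Per the labels and the submitters' processing notes, poly-A RNA of 6 libraries was sequenced after NEBNext preparation, and the notes name HISAT2 2.0.5, StringTie 1.3.3b and featureCounts 1.5.0. The deposited raw counts per gene were made by the authors and are neither normalized nor filtered, and the genome build is not given in the sources used here. The authors also deposited FPKM, which served only as an alternative. The table also holds the authors' own comparison (fold changes and p-values), which was not used.

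Samples were grouped by their labels. Low genes were removed by filterByExpr, and the TMM-scaled rest entered the robust quasi-likelihood test of edgeR 4.0.16 (R 4.3.3), with Benjamini-Hochberg adjustment over 14670 genes and a threshold of 0.05. CPM and RPKM were computed from the counts and the TMM factors (0.9809 to 1.042). Marker sums were compared by a two-sided exact permutation test. For profile likeness 0.1 CPM was added before the log2, and genes needed a mean of at least 1 CPM. The labels number the replicates 1 to 3 in each group. After the group mean was taken off each gene, libraries sharing a number had r = 0.455, 0.353 and 0.368 over genes. Genes are not independent replicates. Other pairs had r between -0.313 and -0.000251, so the numbers were taken to pair the libraries. The main fit and the fits leaving out a library did not use this pairing. The test was checked on simulated counts. No library was a duplicate of another (lowest chi-square per degree of freedom, 11.9).

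The receptor genes and all gene lists were chosen with earlier results of these data known. Named genes were all receptor genes, up to 4 called genes with the smallest adjusted p of each list, its most abundant gene per length, the 3 profiles most like Mchr1 and Gpr17, and lists of at most 5. Pdgfra, Pmch and Chat were named after their values were seen. Of 419 listed genes, receptors included, 407 were found. The alternatives were other normalizations, no low-count filter or a minimum of 10 in each library, DESeq2 1.42.0, limma 3.58.1 (voom, and log2(FPKM + 1) or log2(FPKM + 0.1)), the replicate block, other thresholds, thinning to the smallest library and leaving out each library in turn. Protein sequences were not analysed here.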

Additional observations from a re-analysis of the deposited data

How the results depend on the processing

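Across 19 alternatives the receptor genes called higher numbered 2, of which Mchr1 was chosen by its increase and says nothing on stability, and the other was Chrm3. The number called lower was 1 without a filter on low counts and 1 at an adjusted p under 0.01, and it ran from 1 to 2 when single libraries were left out. In those leave-out fits the median log2 fold change of the set ran from -0.65 to -0.24. That median was -0.67 without a filter, -0.67 with a minimum of 10 counts per library and -0.68 with DESeq2. Over all genes 4705 were called with the replicate block, 1053 at an adjusted p under 0.01 and 622 past a log2 fold limit of 1 in either direction, and 1306 to 1927 when single libraries were left out. Of the context lists, 69 genes were called with the replicate block, 14 at the stricter threshold and 7 with the fold limit. Chrm1 had a log2 fold change of -0.020 without DMSO replicate 2 (range -0.020 to 0.68 over single libraries left out) and Hrh3 had 0.041 without DMSO replicate 3 (range -0.67 to 0.041). Hrh3 could not be fitted under that minimum. The pairing by replicate number added the call of S1pr5 and changed no other call among the receptor genes. The causes were not tested. Normalization moved the median of all genes only between -0.03 and 0.00 on the log2 scale. Oprk1 had at most 3 counts in a library, so depth limits it, while Hrh3 and Chrm1 had at most 25 and 47.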

Other observations

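Among the 9 OPC markers found in the table, 8 were called, beside 15.0% of all tested genes, and they split by direction. Pdgfra and Cspg4, the surface proteins by which OPCs are usually recognised, had log2 fold changes of 1.10 and 1.04, and the transcription factor gene Olig1 and the phosphatase gene Ptprz1 had 0.64 and 0.54. C1ql1, Vcan, Matn4 and Sox10 were lower, with -1.45, -1.29, -1.86 and -0.61. Pdgfra went from 394 ± 49.2 to 844 ± 249 CPM (SD, n = 3) and C1ql1 from 81.0 ± 8.89 to 29.7 ± 4.04 CPM. The summed level of the list overlapped between the groups, with an exact permutation p of 0.2. The number called higher was 1 without DMSO replicate 2 or without DMSO replicate 3, and the number called lower was 2 without ZJU-37 replicate 3.

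Of the 8 tested astrocyte markers, Sox9 was higher and Aldoc lower, with log2 fold changes of 0.53 and -0.86 in edgeR. With the block 5 were called, 1 higher and 4 lower. For these lists the shares over all tested genes are 15.0% without the block and 32.1% with it. The call of Sox9 was lost without DMSO replicate 1, DMSO replicate 2, ZJU-37 replicate 1 or ZJU-37 replicate 3, where the number called higher was 0. None of the 11 microglia, 11 neuron and 4 tested vascular and fibroblast markers was called by edgeR without the block, while 4, 5 and 1 of them were called with it, all lower. At an unadjusted p under 0.05 in edgeR they numbered 0, 2 and 0. DESeq2 called 1 neuron marker, edgeR without DMSO replicate 2 also called 1, and limma called 0 in the 3 lists.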
